A study of Mus musculus with 24 samples.

Results

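Cortex of mice aged 18 months was compared with cortex of mice aged 3 months, in both cases 3 days after a stroke. The comparison takes all genes and the 12 libraries titled MCAO_18M or MCAO_3M, of 24 libraries in the series, as the labels assign them. MCAO is occlusion of the middle cerebral artery, here made permanent by coagulating and cutting the vessel under isoflurane, which leaves a small infarct in the parietal cortex of C57Black/6 mice. Parietal cortex was taken from 6 animals per group: MCAO at 18 months (MCAO_18M), MCAO at 3 months (MCAO_3M), and cortex of intact mice at 18 months (Ctrl_18M) and at 3 months (Ctrl_3M). No sham operation is named in the labels, the distance of the sampled tissue from the infarct is not stated, and the animals' sex is not given. Libraries were made with a kit that reads the 3′ end of polyadenylated RNA, from 400 ng of total RNA each, so counts are set little by transcript length.

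After an arterial occlusion, dying tissue releases signals that activate resident microglia and astrocytes, draw monocytes and neutrophils from the blood, and are followed by the loss of neurons in the infarct. Type I interferons are cytokines that act through a receptor, STAT and IRF transcription factors and a DNA element with repeated GAAA letters, and induce many genes that detect foreign nucleic acid, block viral replication and raise antigen presentation. Interferon-responsive microglia are known from ageing brain and from injured brain.

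The 18-month MCAO libraries held 4569586 to 9375988 gene counts and the 3-month MCAO libraries held 4170241 to 13082872. Neither these totals nor the share of spiked-in ERCC control RNA differed beyond the spread between animals. That share was 8.14 ± 1.43% at 18 months and 9.10 ± 1.04% at 3 months (SD, n = 6 each; exact permutation test, two-sided, adjusted p = 0.402 over 4 library measures). Some libraries stood apart. Library A of the 3-month MCAO group was the deepest and had the highest summed level of homeostatic microglial markers, 2234 CPM against 820 to 1659 CPM in the other 3-month MCAO libraries. Library C of that group had a summed level of 1393 CPM for the 3 tested markers of choroid plexus and ependyma. Libraries F and C of the 18-month MCAO group had the most haemoglobin RNA, 1259.7 and 388 CPM summed. Counts are therefore also given without these 4 libraries. Reads of the Y-linked genes Ddx3y, Eif2s3y and Uty were at 0 in all 24 libraries, and Kdm5d, also Y-linked, had at most 1 read in a library. Xist, the RNA of the inactive X chromosome, had 467 to 1391 CPM over the 24 libraries. This is the pattern of female animals, although the labels give no sex. Markers of neurons, astrocytes, oligodendrocytes and microglia, the cells of cortex, were present in every library.

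Aged cortex after MCAO had more RNA of many interferon-induced, antigen-presenting and phagocyte genes than young cortex after MCAO, and less RNA of some synaptic and ion channel genes. Most called genes lie outside the lists described here, and no enrichment test was made. Of 14599 genes tested, 1593 passed an adjusted p of 0.05 (edgeR quasi-likelihood test, Benjamini-Hochberg adjustment over all genes tested), which is 10.9%. Of these, 935 were higher at 18 months (6.4% of genes tested) and 658 were lower (4.51%). The higher genes changed more: 304 rose by at least 1 on the log2 scale, while 54 fell by at least 1. All 6 aged values lay above all 6 young values for 367 genes (2.51%), and below them for 179 genes (1.23%), 546 genes or 3.74% in all. The median log2 fold change over all genes tested was 0.02.

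The split between higher and lower genes depended on how libraries were scaled. With scaling to the spiked-in RNA in place of gene counts, the median over all genes was 0.23, and 646 genes were called higher and 25 lower, so 96.3% of calls were higher in place of 58.7%. All directions below are relative to the bulk of genes. Counts of called list members below stand beside 6.4% of all genes called higher and 4.51% called lower. Counts of members without overlap stand beside 2.51% of all genes higher and 1.23% lower. The number of calls also rested on single libraries: 951 genes were called without library C of the 18-month MCAO group (577 higher and 374 lower) and 1038 without library E of that group (407 lower), while 430 lower genes were called without library C of the 3-month MCAO group, against 658 with it. Without the 4 libraries that stood apart, 769 genes were called higher and 330 lower, of which 468 and 224 were among those called higher and lower with all libraries. In bulk tissue, fewer cells of a type and less RNA per cell cannot be told apart.

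**Figure D1:**
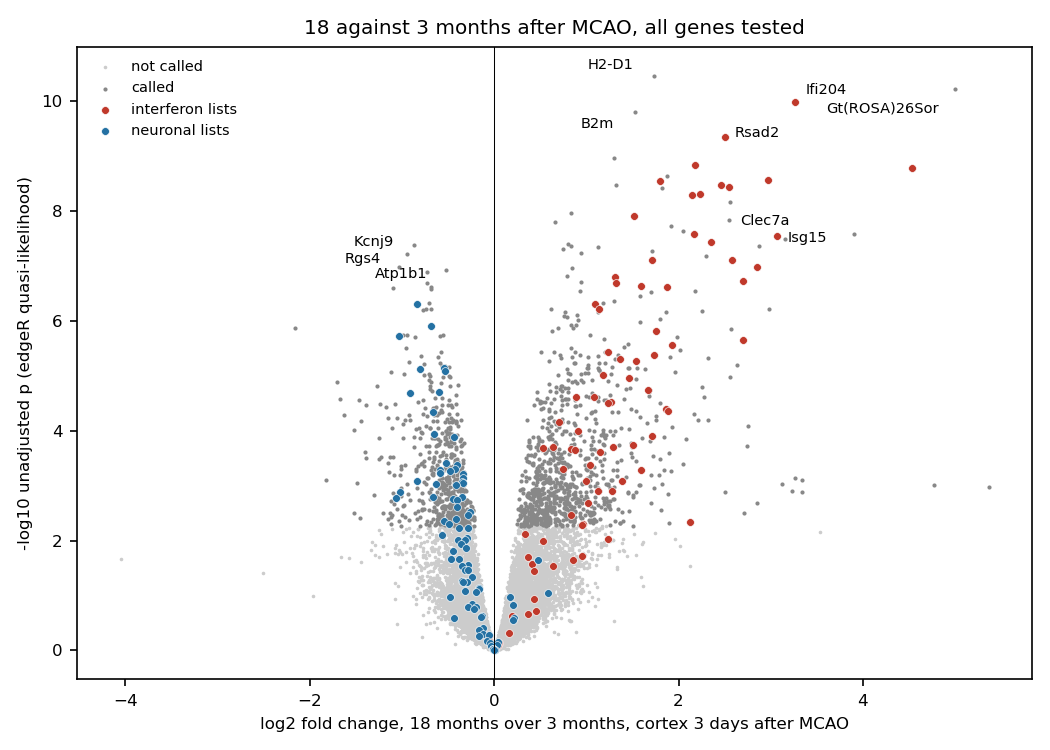
Each point is 1 of 14599 genes, with the log2 fold change of 18-month over 3-month MCAO cortex on the horizontal axis and -log10 of the unadjusted p on the vertical axis; genes called at an adjusted p of 0.05 are dark grey, interferon lists red and neuronal lists blue. Of 80 interferon genes tested 62 were called higher and none lower, and of 89 neuronal genes 36 were called lower, and with scaling to spiked-in RNA 3 were.

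Interferon-induced genes were higher in aged cortex. Of 93 genes in 8 lists, 80 had enough reads to be tested, and 62 of these were called higher, beside 6.4% of all genes tested. None was called lower, 78 had a positive log2 fold change, and the median was 1.25 beside 0.02 over all genes. In 39 of the 80 the aged and young animals did not overlap, beside 2.51% of all genes. The count was 62 again without the 4 libraries that stood apart and 60 with scaling to spiked-in RNA. In intact cortex the same 80 genes had a median log2 fold change of 0.21 with age. There 9 of them had an unadjusted p under 0.05 and none was called by edgeR or DESeq2, while limma voom called 1. The test of whether the age difference itself differed between MCAO and intact cortex called 3 of the 80, beside 0.0822% of all genes.

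To show the DNA element on which the pathway acts, promoters were searched on both strands for a pair of GAAA runs with any 2 bases between them, in the 300 bases that run from 250 before to 50 after the transcript start. RefSeq promoters of build GRCm38.p6 were at hand for 61 of the 80 tested interferon genes, and 26 of them (42.6%) held the letters, beside 943 of all 27025 promoters (3.49%). Among the genes called higher 23 of 46 held them, and among those not called 3 of 15. The following promoters belong to genes described below that hold the letters, which are in capitals (on the other strand they read as TTTC runs, and matches may overlap). They are shown because Isg15, Ifit1 and Rsad2 were among the interferon genes that rose most, Irgm2 represents the GTPases, and B2m antigen presentation.
Isg15: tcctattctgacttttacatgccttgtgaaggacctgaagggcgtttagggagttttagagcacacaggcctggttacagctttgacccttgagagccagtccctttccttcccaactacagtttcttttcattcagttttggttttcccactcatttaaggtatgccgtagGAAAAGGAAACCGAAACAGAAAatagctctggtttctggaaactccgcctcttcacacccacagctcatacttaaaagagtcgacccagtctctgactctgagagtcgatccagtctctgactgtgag
Ifit1: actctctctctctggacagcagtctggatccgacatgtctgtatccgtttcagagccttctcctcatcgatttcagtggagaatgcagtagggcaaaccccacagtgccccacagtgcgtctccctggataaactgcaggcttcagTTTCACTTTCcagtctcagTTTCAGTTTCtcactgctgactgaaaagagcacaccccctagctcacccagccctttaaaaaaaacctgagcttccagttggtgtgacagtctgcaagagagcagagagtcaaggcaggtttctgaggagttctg
Rsad2: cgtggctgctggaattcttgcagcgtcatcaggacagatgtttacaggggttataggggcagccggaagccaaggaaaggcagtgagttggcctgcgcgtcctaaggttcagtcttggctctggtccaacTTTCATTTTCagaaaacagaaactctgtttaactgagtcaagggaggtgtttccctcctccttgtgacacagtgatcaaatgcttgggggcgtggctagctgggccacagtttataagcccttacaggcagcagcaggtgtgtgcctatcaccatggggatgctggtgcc
Irgm2: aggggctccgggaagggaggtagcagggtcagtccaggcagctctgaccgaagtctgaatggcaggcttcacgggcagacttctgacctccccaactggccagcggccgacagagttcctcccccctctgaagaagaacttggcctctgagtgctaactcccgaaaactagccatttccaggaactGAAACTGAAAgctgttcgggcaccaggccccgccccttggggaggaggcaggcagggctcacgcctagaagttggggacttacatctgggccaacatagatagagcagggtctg
B2m: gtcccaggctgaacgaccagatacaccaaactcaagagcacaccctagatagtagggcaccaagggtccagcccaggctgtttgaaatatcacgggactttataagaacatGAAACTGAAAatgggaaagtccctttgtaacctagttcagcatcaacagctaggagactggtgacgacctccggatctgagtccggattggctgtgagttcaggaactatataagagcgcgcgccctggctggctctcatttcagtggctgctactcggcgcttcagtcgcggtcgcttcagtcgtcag

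The Isg15 promoter lies at chr4:156200769-156201068 on the minus strand and holds 3 overlapping matches. Those of Ifit1 (chr19:34640639-34640938, plus strand) and Rsad2 (chr12:26456403-26456702, minus strand) hold 2 matches and 1 match. Irgm2 (chr11:58214727-58215026, plus strand) and B2m (chr2:122147437-122147736, plus strand) hold 1 match each. A match in these letters is a description and does not show that a factor was bound.

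Sensors of foreign nucleic acid stand at the start of the pathway, and 7 of 10 were higher. Values are given as the lowest, the median and the highest of 6 animals, in CPM, the gene's counts relative to the library total after TMM scaling. Ddx58, which encodes the RNA sensor RIG-I, had 11.7, 19.4 and 28.8 CPM in 18-month MCAO cortex, against 6.299, 7.36 and 10.6 CPM in 3-month MCAO cortex (log2 fold change 1.32 ± 0.19 (SE), adjusted p = 5.72e-05). Ifih1, the sensor MDA5, had 7.91, 14.9 and 21.02 CPM in 18-month MCAO cortex, against 5.56, 6.07 and 7.400 CPM in 3-month MCAO cortex (log2 fold change 1.23 ± 0.21 (SE), adjusted p = 4.80e-04). In both genes the aged animals all lay above the young animals. Zbp1, which binds left-handed nucleic acid and can start inflammatory cell death, had 2.28, 6.51 and 11.9 CPM in 18-month MCAO cortex, against 0.447, 0.560 and 2.03 CPM in 3-month MCAO cortex (log2 fold change 2.85 ± 0.40 (SE), adjusted p = 3.56e-05). The ranges of Zbp1 did not overlap, although library A of the 3-month group was far above the other young libraries, and without it the log2 fold change was 3.51.

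The receptor genes were not called. Ifnar1 and Ifnar2, the chains of the type I interferon receptor, had log2 fold changes of 0.04 ± 0.15 and 0.37 ± 0.15 (adjusted p = 0.892 and 0.111). Ifnar2 was called without library A of the 3-month MCAO group (0.49, adjusted p = 0.0202). Factors downstream of the receptor were higher. Irf9, part of the interferon-induced transcription factor complex, rose by 1.09 ± 0.17 on the log2 scale (adjusted p = 1.07e-04). Irf7, which amplifies interferon production, had 11.1, 19.01 and 46.8 CPM in 18-month MCAO cortex, against 1.65, 3.69 and 8.296 CPM in 3-month MCAO cortex. Its aged animals did not overlap the young ones, and the log2 fold change was 2.58 ± 0.35 (SE, adjusted p = 2.80e-05). In the list of receptors, STATs and IRFs 5 of 13 members were called higher and none lower.

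Antiviral effectors were called higher in 24 of 24 tested members with all libraries, with a median log2 fold change of 1.35. The count was 21 to 23 when 1 MCAO library was left out. In 10 of the 24 the aged and young animals did not overlap, beside 2.51% of all genes. Rsad2, which encodes viperin, an enzyme that makes a chain-terminating nucleotide, had 44.3, 63.2 and 119 CPM in 18-month MCAO cortex, against 9.44, 11.2 and 21.1 CPM in 3-month MCAO cortex (log2 fold change 2.50 ± 0.26 (SE), adjusted p = 1.31e-06). Mx1, a dynamin-like GTPase, was scarce, with 1.96, 4.23 and 6.56 CPM in 18-month MCAO cortex, against 0.394, 0.911 and 2.11 CPM in 3-month MCAO cortex, which overlapped by a narrow margin (log2 fold change 1.88 ± 0.39 (SE), adjusted p = 0.00226). Bst2, or tetherin, which holds budding virus at the membrane, had 66.8, 91.4 and 164 CPM in 18-month MCAO cortex, against 16.6, 23.97 and 51.4 CPM in 3-month MCAO cortex (log2 fold change 1.88 ± 0.27 (SE), adjusted p = 6.40e-05). Ifi44 and Trim30a also rose, by 2.55 ± 0.30 and 1.80 ± 0.21 on the log2 scale (adjusted p = 3.73e-06 and 3.73e-06).

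Isg15, a ubiquitin-like protein that is joined to other proteins, had 90.8, 191 and 456 CPM in 18-month MCAO cortex, against 12.5, 23.1 and 55.8 CPM in 3-month MCAO cortex (log2 fold change 3.07 ± 0.37 (SE), adjusted p = 1.54e-05). This is an 8.39-fold difference, and the ranges did not overlap. Usp18, which removes Isg15 and dampens the interferon receptor, had 11.5, 18.2 and 41.8 CPM in 18-month MCAO cortex, against 1.41, 3.13 and 6.73 CPM in 3-month MCAO cortex (log2 fold change 2.69 ± 0.38 (SE), adjusted p = 5.67e-05). Of the genes for the conjugation chain, Ube2l6, the conjugating enzyme, was not called with all libraries (0.96 ± 0.39, adjusted p = 0.110). Without library C of the 3-month MCAO group its log2 fold change was 1.52 (adjusted p = 0.00611), and all 5 members of the list were called.

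The Ifit genes encode proteins that bind foreign RNA ends. Ifit1 had 13.04, 21.7 and 41.8 CPM in 18-month MCAO cortex, against 1.79, 2.86 and 4.38 CPM in 3-month MCAO cortex, with no overlap (log2 fold change 2.97 ± 0.34 (SE), adjusted p = 3.73e-06). Ifit2 (1.36 ± 0.24), Ifit3 (2.18 ± 0.24) and Ifit3b (2.23 ± 0.26) rose as well, with adjusted p of 5.69e-04, 2.96e-06 and 4.45e-06. Ifit3 and Ifit3b are near-identical copies, and reads that map to both were not counted, so their split is uncertain. Oas2, an enzyme that makes the messenger that activates RNase L, had 3.56, 8.43 and 12.7 CPM in 18-month MCAO cortex, against 0, 1.16 and 2.49 CPM in 3-month MCAO cortex (log2 fold change 2.70 ± 0.45 (SE), adjusted p = 3.15e-04), and Oasl2 rose by 2.36 ± 0.31 (adjusted p = 1.82e-05).

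Guanylate-binding proteins and immunity-related GTPases, which attack the vacuoles of intracellular pathogens, were higher in 10 of 11 tested members, with a median of 1.53 after MCAO and -0.03 in intact cortex. Irgm2 had 15.8, 23.8 and 48.5 CPM in 18-month MCAO cortex, against 1.800, 7.97 and 10.2 CPM in 3-month MCAO cortex (log2 fold change 1.93 ± 0.32 (SE), adjusted p = 3.90e-04). Log2 fold changes were 1.67 ± 0.32 for Gbp2, 1.73 ± 0.30 for Gbp3, 1.13 ± 0.17 for Gbp7 and 1.76 ± 0.29 for Iigp1 (adjusted p = 0.00129, 5.27e-04, 1.25e-04 and 2.46e-04). In 9 of the 11 the aged and young animals did not overlap, beside 2.51% of all genes.

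In the Ifi200 cluster, whose members sense or respond to cytosolic DNA, 4 of 5 tested genes were higher, with a median of 2.47 after MCAO and 1.32 in intact cortex. The median in intact cortex rests on few reads. The cluster's summed level there was 2.69 to 5.54 CPM at 18 months, against 3.02 to 4.41 CPM at 3 months, and no member was called. Ifi204 had 10.6, 19.6 and 40.7 CPM in 18-month MCAO cortex, against 1.41, 1.95 and 3.35 CPM in 3-month MCAO cortex (log2 fold change 3.27 ± 0.32 (SE), adjusted p = 5.08e-07), and Ifi207 had 10.5, 18.6 and 24.6 CPM in 18-month MCAO cortex, against 2.29, 3.62 and 4.25 CPM in 3-month MCAO cortex (log2 fold change 2.47 ± 0.29 (SE), adjusted p = 3.73e-06). Ifi203 rose by 1.71 ± 0.23 (adjusted p = 2.80e-05). Ifi211 had 3.95, 5.03 and 13.6 CPM in 18-month MCAO cortex, against 0, 0.184 and 0.470 CPM in 3-month MCAO cortex, a log2 fold change of 4.53 ± 0.51 (SE, adjusted p = 2.96e-06). The cluster holds near-identical genes, and reads that fit several of them were not counted.

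**Figure D2:**
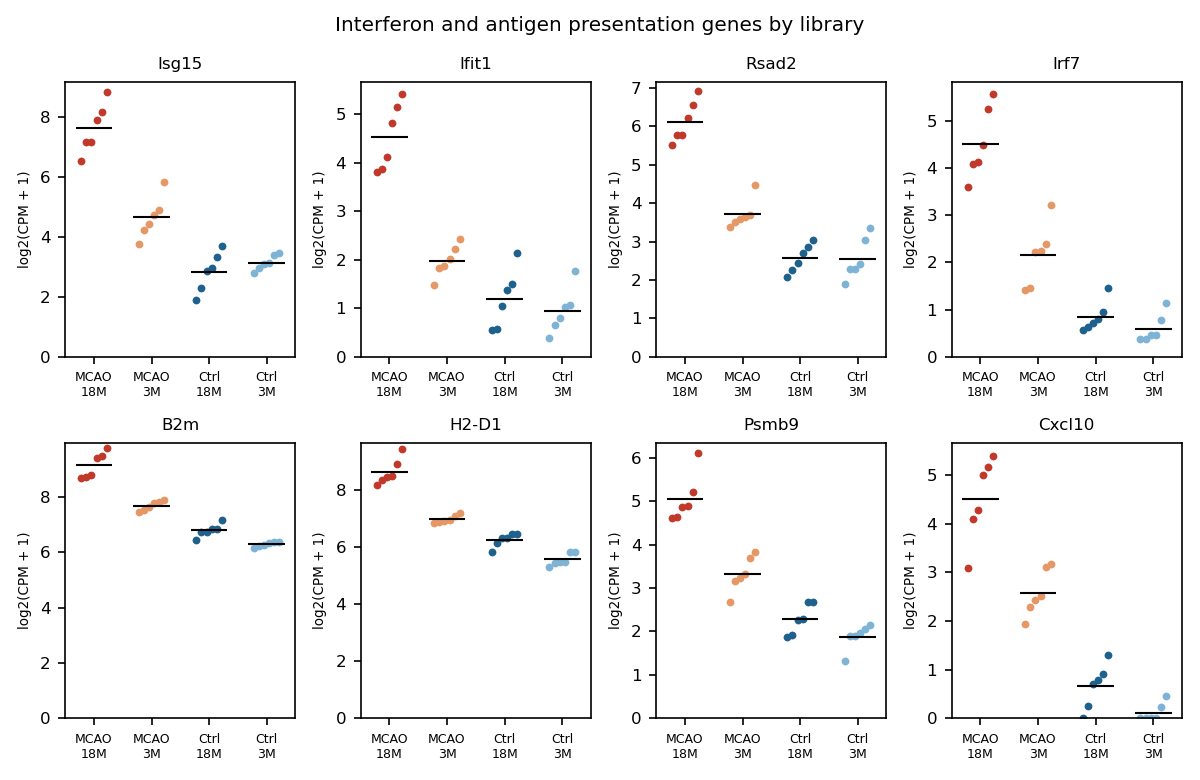
Each dot is 1 library, on log2(CPM + 1), with the mean of each group of 6 as a line, for 8 interferon and antigen presentation genes. For all 8 genes except Cxcl10 the 6 MCAO_18M libraries lie above the 6 MCAO_3M libraries; Cxcl10 ranges from 7.50 to 40.9 CPM in MCAO_18M and from 2.83 to 8.06 CPM in MCAO_3M, and both control groups are lower.

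The MHC class I pathway, which presents antigen, was higher in most genes as well. In the list of class I chains and peptide loading factors 10 of 13 tested members were higher and none was lower. In 10 the aged and young animals did not overlap, beside 2.51% of all genes. Tap2 did not overlap without being called, and Erap1 was called with overlap. The median log2 fold change was 1.60 after MCAO and 0.52 in intact cortex. B2m, the shared light chain, had 410.4, 565 and 872 CPM in 18-month MCAO cortex, against 174, 208 and 236 CPM in 3-month MCAO cortex (log2 fold change 1.52 ± 0.15 (SE), adjusted p = 5.61e-07). In intact cortex B2m had 86.9 to 141 CPM at 18 months, against 70.4 to 82.7 CPM at 3 months. The classical heavy chains H2-K1 and H2-D1 had 291, 371 and 735 CPM and 286, 354 and 687 CPM in 18-month MCAO cortex, against 103, 108 and 167 CPM and 112, 119.5 and 144 CPM in 3-month MCAO cortex. Their log2 fold changes were 1.88 ± 0.21 and 1.74 ± 0.16 (adjusted p = 3.71e-06 and 4.41e-07), and each aged animal had more than any young one. H2-Q7, a nonclassical heavy chain of a family with near-identical copies, had 36.3, 40.7 and 104 CPM in 18-month MCAO cortex, against 2.82, 7.38 and 7.79 CPM in 3-month MCAO cortex (log2 fold change 3.15 ± 0.40 (SE), adjusted p = 1.67e-05).

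The immunoproteasome cuts the peptides that class I presents, and 4 of its 5 tested genes were higher. Psmb9, a catalytic subunit, had 23.5, 28.3 and 67.7 CPM in 18-month MCAO cortex, against 5.400, 8.73 and 13.2 CPM in 3-month MCAO cortex (log2 fold change 1.92 ± 0.24 (SE), adjusted p = 1.18e-05). Psmb8 rose by 1.82 ± 0.21 and the activator Psme2 by 0.85 ± 0.16 (adjusted p = 3.73e-06 and 0.00101). Psmb10, the third inducible catalytic subunit, had a log2 fold change of 0.14 ± 0.14 (adjusted p = 0.543). Psmb9 overlaps Tap1 on the opposite strand, and the strand setting of the counting is not known here.

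MHC class II, which professional phagocytes use, was less clear. Cd74, its chaperone, had a log2 fold change of 1.11 ± 0.45 (adjusted p = 0.117), and H2-Ab1 had 0.78 ± 0.39 (adjusted p = 0.210). H2-Aa was the 1 member of 6 that was called higher (log2 fold change 1.08 ± 0.34 (SE), adjusted p = 0.0426), with 8.98, 16.1 and 46.04 CPM in 18-month MCAO cortex, against 4.33, 10.7 and 14.2 CPM in 3-month MCAO cortex. That call was lost without any of 6 single libraries (B, D or E of the 3-month MCAO group, or B, C or E of the 18-month MCAO group). Without library A of the 3-month MCAO group 4 members were called.

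Chemokines that recruit blood leukocytes were higher in 7 of 12 tested members, with a median of 1.48. Cxcl10, an interferon-induced chemokine for T cells, had 7.496, 24.9 and 40.9 CPM in 18-month MCAO cortex, against 2.83, 4.56 and 8.06 CPM in 3-month MCAO cortex (log2 fold change 2.26 ± 0.35 (SE), adjusted p = 1.31e-04). Cxcl1, which draws neutrophils, had 7.695, 14.5 and 24.04 CPM in 18-month MCAO cortex, against 1.18, 3.36 and 6.33 CPM in 3-month MCAO cortex (log2 fold change 2.01 ± 0.34 (SE), adjusted p = 4.56e-04), a difference with no overlap. The monocyte chemokines Ccl7 and Ccl2 rose by 1.80 ± 0.36 and 1.45 ± 0.40 (adjusted p = 0.00177 and 0.0211). Without library C of the 18-month MCAO group 3 of the 12 were called, and Ccl2 was not (adjusted p = 0.0606). The median of the same list in intact cortex was 1.23, with 2 members called higher, but several members were near 0 CPM there. Ccl7 had 0 to 0.317 CPM in intact cortex at 18 months and 0 to 0.181 CPM at 3 months. The list's summed level in intact cortex was 907.5 to 1193 CPM at 18 months, against 1040 to 1306 CPM at 3 months.

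Of cytokine genes 5 of 11 were higher, beside 6.4% of all genes. The count was 3 without any of libraries C or E of the 3-month group or C or F of the 18-month group. Il33, an alarmin stored in the nuclei of glia, had 86.8, 99.1 and 135 CPM in 18-month MCAO cortex, against 36.02, 41.4 and 50.2 CPM in 3-month MCAO cortex, with no overlap (log2 fold change 1.30 ± 0.14 (SE), adjusted p = 2.66e-06). Csf1, the growth factor of microglia, had 54.4, 56.6 and 65.7 CPM in 18-month MCAO cortex, against 9.16, 33.6 and 37.01 CPM in 3-month MCAO cortex (log2 fold change 1.06 ± 0.22 (SE), adjusted p = 0.00229). Osm, oncostatin M, a gp130 cytokine of neutrophils and macrophages, had 2.61, 3.69 and 6.41 CPM in 18-month MCAO cortex, against 0, 0.648 and 2.24 CPM in 3-month MCAO cortex (log2 fold change 2.08 ± 0.47 (SE), adjusted p = 0.00494). Il1b was scarce and its call was lost without any of 6 single libraries (B, C or E of the 3-month MCAO group, or C, E or F of the 18-month MCAO group); it had 2.37, 4.15 and 8.89 CPM in 18-month MCAO cortex, against 0.671, 2.08 and 4.41 CPM in 3-month MCAO cortex (log2 fold change 1.07 ± 0.35 (SE), adjusted p = 0.0466).

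Complement genes were higher in 6 of 11, beside 6.4% of all genes. C4b, which deposits on targets and is made by astrocytes and oligodendrocytes as well as phagocytes, had 212, 233 and 266 CPM in 18-month MCAO cortex, against 58.9, 81.99 and 147 CPM in 3-month MCAO cortex (log2 fold change 1.32 ± 0.23 (SE), adjusted p = 5.69e-04). In intact cortex C4b had 27.9 to 84.9 CPM at 18 months, against 4.41 to 10.02 CPM at 3 months. C1qc, a chain of the initiating complex, rose by 0.72 ± 0.18 (adjusted p = 0.0114), while C1qa, another chain, had a log2 fold change of 0.47 ± 0.31 (adjusted p = 0.358), or 0.87 without library A of the 3-month MCAO group (adjusted p = 0.0404). The complement list had a median of 0.78 after MCAO and 0.83 in intact cortex.

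Few markers of resting microglia were called. P2ry12, Tmem119 and Cx3cr1, receptors and a surface protein typical of resting microglia, had log2 fold changes of 0.20 ± 0.20, 0.18 ± 0.24 and -0.48 ± 0.24 (adjusted p = 0.539, 0.678 and 0.202). The sign of Cx3cr1 turned to 0.19 without the 3-month libraries A and C. In this list 2 of 12 were called higher (1 without library D of the 18-month MCAO group), beside 6.4% of all genes. The list's summed level was 1039.9 to 1309.7 CPM in 18-month MCAO cortex, against 819.5 to 2234 CPM in 3-month MCAO cortex.

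Genes of phagocytic, disease-associated microglia showed 9 of 20 higher, with 15 called without library A of the 3-month MCAO group and 5 without library C of the 18-month MCAO group. The list's median log2 fold change was 0.66 after MCAO and 0.93 in intact cortex, where 6 of the 20 were called higher with age. Clec7a, the receptor dectin-1, had 38.05, 53.4 and 56.7 CPM in 18-month MCAO cortex, against 4.33, 7.81 and 14.2 CPM in 3-month MCAO cortex (log2 fold change 2.55 ± 0.31 (SE), adjusted p = 1.03e-05). All aged animals lay above all young ones. In intact cortex Clec7a had 2.22 to 15.8 CPM at 18 months, against 0 to 0.901 CPM at 3 months. Spp1, or osteopontin, which phagocytes secrete, had 648, 938 and 1311 CPM in 18-month MCAO cortex, against 120.5, 319 and 479 CPM in 3-month MCAO cortex (log2 fold change 1.63 ± 0.29 (SE), adjusted p = 7.26e-04), again with no overlap. Trem2 and Tyrobp, a lipid receptor and its signalling adaptor, had 0.30 ± 0.26 and 0.52 ± 0.20 (adjusted p = 0.482 and 0.0939), and Tyrobp was called without library A of the 3-month MCAO group (0.66, adjusted p = 0.0221). Lysosomal genes were higher in 8 of 19. Among them Ctss, a protease of phagocytes, had 608, 751 and 924 CPM in 18-month MCAO cortex, against 251, 337 and 612 CPM in 3-month MCAO cortex (log2 fold change 1.02 ± 0.18 (SE), adjusted p = 6.60e-04), while Ctsl and the membrane protein Lamp2 rose by 0.74 ± 0.10 and 0.66 ± 0.08 (adjusted p = 2.06e-05 and 1.04e-05), both with no overlap.

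Genes of blood-derived leukocytes were mixed. In the list of monocytes and infiltrating macrophages 7 of 13 were higher. Plac8 had 25.1, 33.2 and 61.6 CPM in 18-month MCAO cortex, against 1.17, 3.602 and 14.2 CPM in 3-month MCAO cortex (log2 fold change 2.87 ± 0.37 (SE), adjusted p = 1.90e-05), and without library F of the 3-month MCAO group, its highest young value, the log2 fold change was 3.57. Ms4a4c rose by 2.56 ± 0.45 and the intermediate filament gene Vim, which reactive astrocytes also use, by 1.13 ± 0.20 (adjusted p = 8.94e-04 and 7.31e-04). Ccr2, the receptor for Ccl2 and the defining gene of inflammatory monocytes, had 14.2, 20.6 and 30.6 CPM in 18-month MCAO cortex, against 3.54, 7.89 and 45.5 CPM in 3-month MCAO cortex and was not called (log2 fold change 0.64 ± 0.41 (SE), adjusted p = 0.330). The highest young value was again that of library F, without which Ccr2 was called (1.49, adjusted p = 0.00136).

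Neutrophil markers S100a8 and S100a9, calcium-binding alarmins, were called higher. S100a9 had 12.99, 19.1 and 38.5 CPM in 18-month MCAO cortex, against 0.895, 3.26 and 20.5 CPM in 3-month MCAO cortex (log2 fold change 1.89 ± 0.44 (SE), adjusted p = 0.00731); without library F of the 3-month MCAO group its log2 fold change was 2.73. S100a8 rose by 1.51 ± 0.42 (adjusted p = 0.0239), a call lost without library E of the 3-month group or C or F of the 18-month group. These were 2 of 7 tested markers, beside 6.4% of all genes. The count was 4 without library A of the 3-month group, and 1 without library E of it or without C or F of the 18-month group. Ly6g, which defines neutrophils, had 6 reads in the 6 aged and 2 in the 6 young MCAO libraries. Of 16 T and NK cell genes 1 had enough reads to be tested and was not called. That gene, Trbc2, had 3.91 to 17.97 CPM in 18-month MCAO cortex, against 8.03 to 26.8 CPM in 3-month MCAO cortex. In intact cortex it had 18.6 to 28.5 CPM at 18 months and 25.6 to 41.1 CPM at 3 months. The untested members were scarce and went both ways: over the aged and the young MCAO libraries Cd3e had 3 and 7 reads, Cd4 26 and 39, Lck 70 and 69, Cd8a 15 and 1, Klrd1 34 and 9, and Ms4a4b 117 and 28. The part of leukocyte numbers in the interferon and phagocyte results was not tested.

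Haemoglobin genes, which mark blood in the tissue, were called higher too. Hbb-bs had 23.3, 46.2 and 704 CPM in 18-month MCAO cortex, against 2.58, 19.9 and 24.4 CPM in 3-month MCAO cortex (log2 fold change 3.34 ± 0.85 (SE), adjusted p = 0.0150), and all 4 tested erythrocyte genes were called higher. Limma voom called none of the 4, with 3 at an unadjusted p under 0.05. Without library F of the 18-month MCAO group edgeR called none, though all 4 had an unadjusted p under 0.05, with Hba-a1 at an adjusted p of 0.103 and Hbb-bs at 0.0631, and their log2 fold changes were 1.85 and 2.01, in place of 3.24 ± 0.87 and 3.34 ± 0.85 (SE) with all libraries. In the same library the antiviral effectors had a summed level of 585 CPM, the lowest of the aged group. The highest was 1100.19 CPM in library C of that group, which had the next most haemoglobin RNA. The part of blood in the interferon results was not tested.

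**Figure D3:**
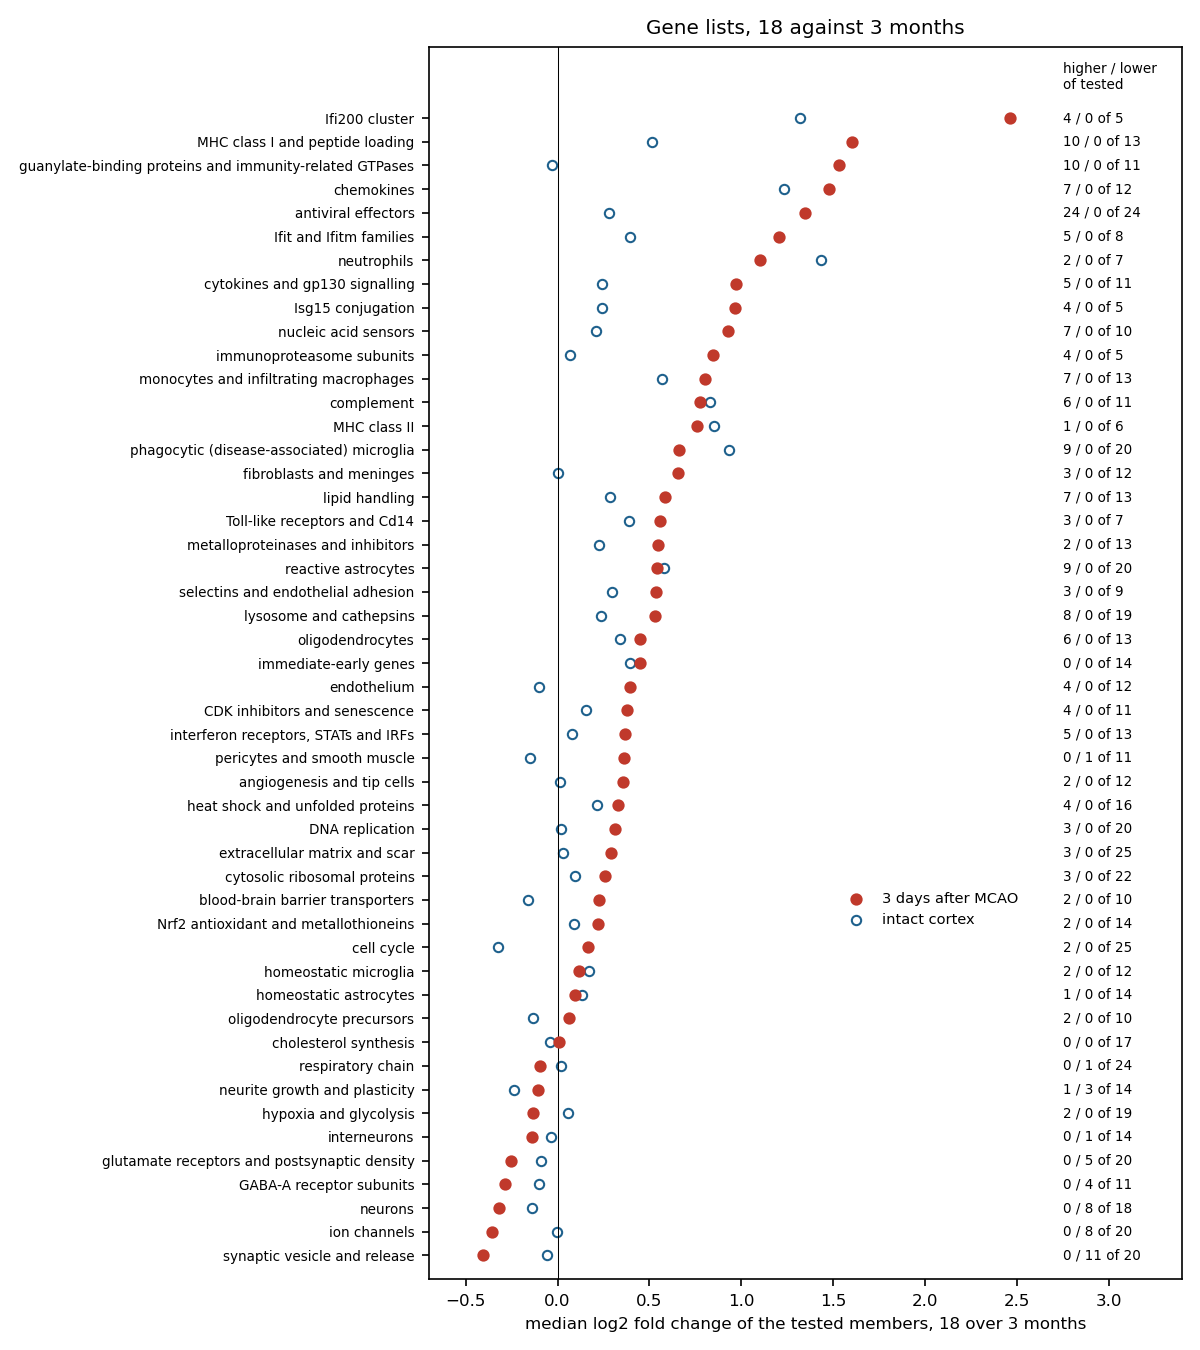
Filled red points give the median log2 fold change of 18 over 3 months after MCAO and open blue points the same in intact cortex, for each gene list with at least 5 tested members; the numbers at the right count the members called higher and lower after MCAO. The Ifi200 cluster lies at the top with a median of 2.47, the receptor, STAT and IRF list at 0.37, and synaptic vesicle genes at the bottom at -0.41; with scaling to spiked-in RNA the median over all genes is 0.23, and the lists of interneurons, neurite growth, respiratory chain and hypoxia turn positive.

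Some genes of reactive astrocytes were higher. Gfap, the filament of reactive astrocytes, had 226, 282 and 335 CPM in 18-month MCAO cortex, against 201, 255 and 296 CPM in 3-month MCAO cortex and was not called (log2 fold change 0.19 ± 0.13 (SE), adjusted p = 0.366). Serpina3n, a protease inhibitor of reactive astrocytes, had 56.1, 63.4 and 82.7 CPM in 18-month MCAO cortex, against 24.7, 32.1 and 40.3 CPM in 3-month MCAO cortex (log2 fold change 1.04 ± 0.17 (SE), adjusted p = 2.79e-04), with no overlap. In the reactive list 9 of 20 were higher, 5 without library C of the 18-month MCAO group. In the list of resting astrocytes 1 of 14 was called higher, a share near the 6.4% of all genes, and the median was 0.09. That gene was the glutamate transporter Slc1a3 (0.35 ± 0.09, adjusted p = 0.0138), whose call was lost with scaling to spiked-in RNA (adjusted p = 0.0966). The water channel Aqp4 had 0.32 ± 0.12 (adjusted p = 0.0848) and was called without library F of the 18-month MCAO group (adjusted p = 0.0233). The count was 2 without library C or without library F of that group.

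Oligodendrocyte genes were higher in 6 of 13, with a summed level of 3421 to 6048 CPM in 18-month MCAO cortex, against 2376 to 3059.7 CPM in 3-month MCAO cortex. Mbp, myelin basic protein, had 887, 1247 and 1704 CPM in 18-month MCAO cortex, against 489, 722 and 920.5 CPM in 3-month MCAO cortex (log2 fold change 0.87 ± 0.15 (SE), adjusted p = 6.39e-04). Ermn, a cytoskeletal protein of myelinating cells, had 62.6, 81.01 and 135 CPM in 18-month MCAO cortex, against 31.7, 39.6 and 45.3 CPM in 3-month MCAO cortex (log2 fold change 1.13 ± 0.15 (SE), adjusted p = 1.92e-05), and Trf, transferrin, 967, 1677 and 2252 CPM in 18-month MCAO cortex, against 535, 667 and 1219 CPM in 3-month MCAO cortex (log2 fold change 1.13 ± 0.20 (SE), adjusted p = 5.34e-04). Mog, a surface protein of mature myelin, was not called (0.33 ± 0.21, adjusted p = 0.332). Within intact cortex the list's median with age was 0.34, with 2 of the 13 called higher.

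Endothelial genes were higher in 4 of 12 (7 without library A of the 3-month MCAO group), beside 6.4% of all genes. Cdh5, the cadherin of endothelial junctions, had 38.3, 53.1 and 99.6 CPM in 18-month MCAO cortex, against 22.4, 27.2 and 43.6 CPM in 3-month MCAO cortex (log2 fold change 1.03 ± 0.20 (SE), adjusted p = 0.00154), and the receptor Flt1 rose by 0.59 ± 0.13 (adjusted p = 0.00490). The tight junction gene Cldn5 had 0.46 ± 0.22 (adjusted p = 0.173), and 0.70 without that library (adjusted p = 0.0172). Slc2a1, the glucose transporter of the blood-brain barrier, had 45.1, 77.8 and 99.9 CPM in 18-month MCAO cortex, against 16.04, 39.8 and 44.6 CPM in 3-month MCAO cortex, with no overlap (log2 fold change 1.07 ± 0.21 (SE), adjusted p = 0.00139). Selp, the adhesion receptor P-selectin, had 4.49, 5.34 and 10.6 CPM in 18-month MCAO cortex, against 0.708, 1.197 and 5.18 CPM in 3-month MCAO cortex (log2 fold change 1.70 ± 0.41 (SE), adjusted p = 0.0133). Of 25 genes of matrix and scar 3 were called higher, beside 6.4% of all genes, with a median of 0.29. The count was 6 without library A, 5 without library F of the 3-month MCAO group and 7 without library D of the 18-month MCAO group. Thbs1, or thrombospondin, was the most changed of them, with 23.7, 47.4 and 55.7 CPM in 18-month MCAO cortex, against 4.03, 10.5 and 17.3 CPM in 3-month MCAO cortex (log2 fold change 2.05 ± 0.26 (SE), adjusted p = 1.41e-05). Tnc, or tenascin, was not called with all libraries (0.78 ± 0.27, adjusted p = 0.0613), but was without library A or F of the 3-month group or A or D of the 18-month group, with adjusted p from 0.0340 to 0.0465.

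Genes of neurons and synapses were lower. Over 5 lists (neurons, synaptic vesicle release, ion channels, glutamate receptors and GABA-A receptors) 36 of 89 tested genes were called lower, beside 4.51% of all genes, none was called higher, and 79 had a negative log2 fold change. The median was -0.33 after MCAO and -0.08 in intact cortex, where 1 was called lower. The shifts were small and the count was sensitive: 3 were called with scaling to spiked-in RNA (median -0.12 beside 0.23 over all genes), 12 without libraries C and F of the 18-month MCAO group, and 22 without the 4 libraries that stood apart. The test of whether the age difference itself differed between MCAO and intact cortex called 2 of the 89, beside 0.0822% of all genes.

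Among neuronal markers 8 of 18 were lower. Rbfox3, the nuclear protein NeuN, had 279, 366 and 534 CPM in 18-month MCAO cortex, against 509.9, 553 and 704 CPM in 3-month MCAO cortex (log2 fold change -0.60 ± 0.12 (SE), adjusted p = 0.00133). Nefm, a neurofilament that overlaps Nefl on the opposite strand, fell by 0.52 on the log2 scale (adjusted p = 0.00963). Snap25 and Syt1, parts of the vesicle fusion machinery, were not called, with -0.12 ± 0.18 and -0.07 ± 0.17 (adjusted p = 0.706 and 0.821). The summed level of the list was 11948 to 17837 CPM in 18-month MCAO cortex, against 17314 to 19712 CPM in 3-month MCAO cortex, and was highest in intact cortex (23917 to 27356 CPM at 18 months and 25565 to 29622 CPM at 3 months).

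Presynaptic release genes had 11 of 20 members lower and none higher, 7 without library C or without library E of the 18-month MCAO group. Cplx1, a complexin that clamps vesicle fusion, had 122, 197 and 259 CPM in 18-month MCAO cortex, against 217, 326 and 342 CPM in 3-month MCAO cortex (log2 fold change -0.67 ± 0.14 (SE), adjusted p = 0.00228), and Rims1, a scaffold of the active zone, 115, 151 and 173 CPM in 18-month MCAO cortex, against 181, 215 and 256 CPM in 3-month MCAO cortex (log2 fold change -0.55 ± 0.10 (SE), adjusted p = 7.09e-04). On the receiving side 5 of 20 glutamate receptor and postsynaptic genes were lower. The NMDA receptor subunits Grin1 and Grin2a had -0.59 ± 0.15 and -0.42 ± 0.11 (adjusted p = 0.0115 and 0.0114), and the adhesion protein Nlgn3 had 36.3, 41.3 and 45.1 CPM in 18-month MCAO cortex, against 51.6, 60.3 and 66.4 CPM in 3-month MCAO cortex (log2 fold change -0.53 ± 0.10 (SE), adjusted p = 7.67e-04).

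Ion channels were lower in 8 of 20 members, 3 without library C of the 18-month MCAO group. The potassium channel Kcnc1, which lets fast-spiking neurons repolarise quickly, had 77.5, 94.8 and 138 CPM in 18-month MCAO cortex, against 128, 161 and 175 CPM in 3-month MCAO cortex (log2 fold change -0.69 ± 0.11 (SE), adjusted p = 2.11e-04). The sodium channel Scn1a had 64.3, 83.6 and 115 CPM in 18-month MCAO cortex, against 117, 138 and 214 CPM in 3-month MCAO cortex (log2 fold change -0.81 ± 0.15 (SE), adjusted p = 7.25e-04), with no overlap.

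GABA-A receptor subunits were lower in 4 of 11 (2 without library E of the 3-month MCAO group). Gabrd, the subunit of receptors outside synapses, had 27.5, 30.7 and 40.3 CPM in 18-month MCAO cortex, against 40.5, 58.7 and 69.4 CPM in 3-month MCAO cortex (log2 fold change -0.83 ± 0.13 (SE), adjusted p = 1.07e-04), the aged range ending just below the young one. Gabrb2 had -0.91 ± 0.18 (adjusted p = 0.00139). Gad1, the enzyme that makes GABA, had -0.34 ± 0.29 (adjusted p = 0.481). Its log2 fold change ranged from -0.55 to -0.09 when 1 library was left out, and without libraries A and C of the 3-month MCAO group it was called at -0.75 (adjusted p = 5.67e-04). Of 14 interneuron genes 1 was lower, beside 4.51% of all genes. The count was 4 without library B of the 18-month MCAO group and 0 without library A of the 3-month MCAO group. That list's median of -0.14 turned to 0.04 with scaling to spiked-in RNA.

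**Figure D4:**
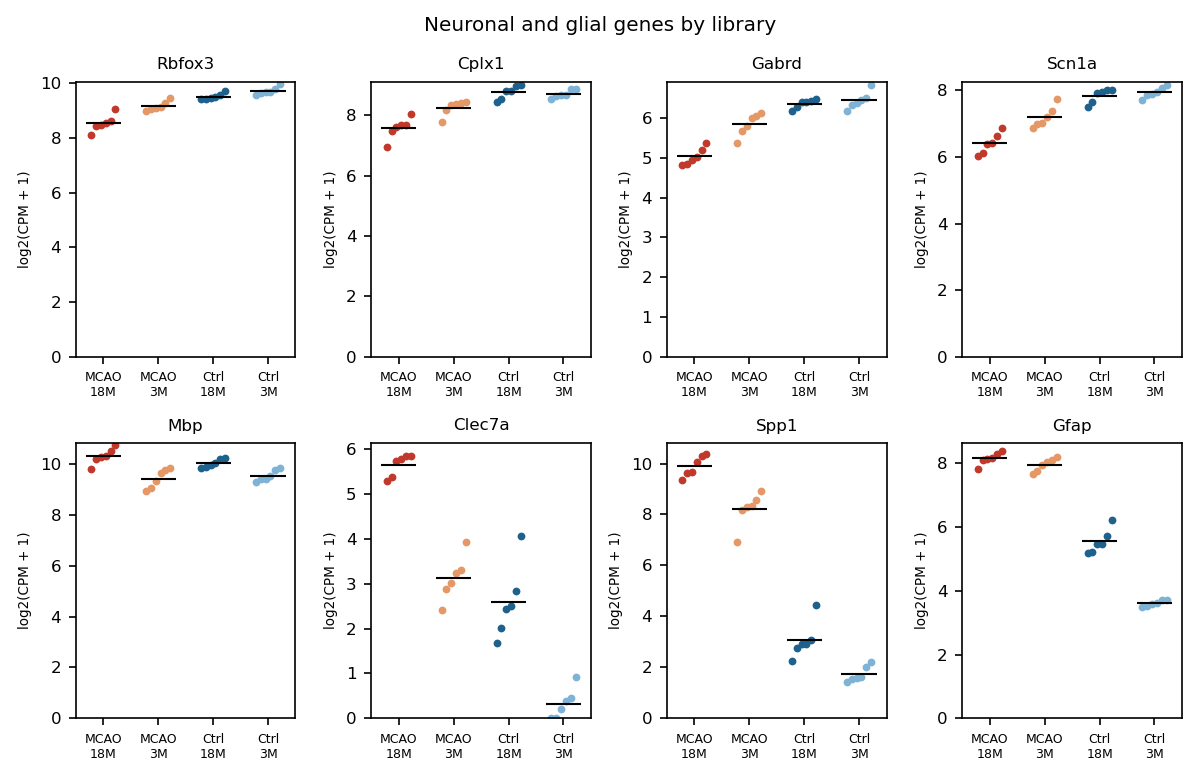
Each dot is 1 library, on log2(CPM + 1), with the mean of each group of 6 as a line, for 4 neuronal and 4 glial genes. Clec7a and Spp1 separate the 6 MCAO_18M from the 6 MCAO_3M libraries, Gfap overlaps after MCAO (226 to 335 CPM in MCAO_18M and 201 to 296 CPM in MCAO_3M), and the neuronal genes are lower in MCAO_18M by 0.60 to 0.83 on the log2 scale, although Rbfox3, Cplx1 and Scn1a are not called with scaling to spiked-in RNA.

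Single genes of growth and of the cell cycle were called. Nrep, a gene of neurite outgrowth and regeneration, had 44.97, 59.1 and 87.9 CPM in 18-month MCAO cortex, against 88.1, 128 and 188 CPM in 3-month MCAO cortex (log2 fold change -1.10 ± 0.16 (SE), adjusted p = 6.52e-05), and Met, a receptor in cortical neurons, 4.04, 6.16 and 7.11 CPM in 18-month MCAO cortex, against 7.32, 10.7 and 15.7 CPM in 3-month MCAO cortex (log2 fold change -0.99 ± 0.21 (SE), adjusted p = 0.00323). Both were also lower with age in intact cortex (-1.42 ± 0.16 and -2.14 ± 0.25, adjusted p = 1.19e-05 and 1.67e-05). Cell cycle genes were called higher in 2 of 25 (4 without library C of the 3-month MCAO group), a share near the 6.4% of all genes. Among them was Ccna2, a cyclin (0.76 ± 0.19, adjusted p = 0.00942). Mki67, the usual mark of cycling cells, had 10.3, 16.7 and 26.8 CPM in 18-month MCAO cortex, against 13.4, 18.6 and 36.5 CPM in 3-month MCAO cortex and was not called (log2 fold change -0.25 ± 0.26 (SE), adjusted p = 0.558). Of DNA replication genes 3 of 20 were called higher, beside 6.4% of all genes. The count was 1, near that share, without any of libraries C, D or E of the 3-month group or C or E of the 18-month group. Among the 3 the replication factor Gins2 rose by 0.73 ± 0.16 (adjusted p = 0.00435).

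Cdkn2a, which encodes the inhibitor p16 and accumulates in ageing tissue, had 2.87, 6.48 and 10.1 CPM in 18-month MCAO cortex, against 1.12, 1.96 and 3.35 CPM in 3-month MCAO cortex (log2 fold change 1.60 ± 0.36 (SE), adjusted p = 0.00481). In intact cortex Cdkn2a had 0.721 to 3.51 CPM at 18 months, against 0 to 0.907 CPM at 3 months. Lipid handling genes were higher in 7 of 13 (4 without library C or without library E of the 18-month MCAO group): the exporter Abca1 rose by 0.76 ± 0.17, the fatty acid receptor Cd36 by 1.54 ± 0.38 and the droplet protein Plin4 by 2.21 ± 0.47 (adjusted p = 0.00394, 0.00938 and 0.00286). Of 14 antioxidant and metallothionein genes 2 were called higher (4 without library D of the 18-month MCAO group), beside 6.4% of all genes. Ferritin Fth1 and metallothionein Mt2, which bind iron and zinc, rose by 0.51 ± 0.09 and 0.52 ± 0.14 (adjusted p = 4.80e-04 and 0.0137). Hypoxia and glycolysis genes had a median of -0.13 (0.04 with scaling to spiked-in RNA), with 8 of 19 positive. Of the 19, 2 were called higher, beside 6.4% of all genes, among them Ndrg1, a stress gene of myelinating cells and hypoxia (0.83 ± 0.10, adjusted p = 8.41e-06). Heat shock and unfolded protein genes were called higher in 4 of 16 (2 without library C of the 18-month MCAO group), beside 6.4% of all genes. Among them was the factor Xbp1 (0.76 ± 0.18, adjusted p = 0.00722). Cholesterol synthesis genes (17 tested) and immediate-early genes (14 tested) held no call by edgeR, DESeq2 or limma voom, with 2 and 1 members at an unadjusted p under 0.05 in edgeR.

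Outside these lists, the largest rise among genes named by their size of change was in Gt(ROSA)26Sor, a noncoding gene at a locus widely used for transgenes, which overlaps Thumpd3 on the opposite strand. It had 6.67, 10.1 and 12.8 CPM in 18-month MCAO cortex, against 0, 0.255 and 0.708 CPM in 3-month MCAO cortex (log2 fold change 5.001 ± 0.48 (SE), adjusted p = 4.41e-07), and in intact cortex 0.952, 8.300 and 10.9 CPM at 18 months, against 0, 0.664 and 1.34 CPM at 3 months. Trim30d and Trim34a, of the antiviral TRIM cluster, rose by 3.91 ± 0.50 and 2.98 ± 0.46 (adjusted p = 1.48e-05 and 1.25e-04), and more without library E of the 3-month group (5.04 and 3.61).

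Falls chosen in the same way were smaller. Cyp11a1, the first enzyme of steroid synthesis, had 1.304, 2.46 and 3.36 CPM in 18-month MCAO cortex, against 3.94, 6.89 and 12.7 CPM in 3-month MCAO cortex (log2 fold change -1.63 ± 0.34 (SE), adjusted p = 0.00245), and Igsf9, a neuronal adhesion protein, 8.89, 12.2 and 16.2 CPM in 18-month MCAO cortex, against 28.3, 35.4 and 39.7 CPM in 3-month MCAO cortex (log2 fold change -1.52 ± 0.33 (SE), adjusted p = 0.00386). Among the falls with the smallest p were Rgs4, a brake on G protein signalling, with 135, 195 and 295 CPM in 18-month MCAO cortex, against 336, 408 and 514 CPM in 3-month MCAO cortex (log2 fold change -1.04 ± 0.14 (SE), adjusted p = 3.56e-05), and Atp1b1, a sodium pump subunit, with 1002, 1053 and 1223 CPM in 18-month MCAO cortex, against 1397, 1525 and 1757 CPM in 3-month MCAO cortex (log2 fold change -0.53 ± 0.07 (SE), adjusted p = 3.83e-05). Kcnj9, a G protein-gated potassium channel, Shroom2 and the adhesion protein Cadm2 had -0.94 ± 0.13, -0.87 ± 0.11 and -0.69 ± 0.10 (adjusted p = 2.35e-05, 1.90e-05 and 6.64e-05). In intact cortex Cadm2 had 579 to 612 CPM at 18 months, against 678 to 766 CPM at 3 months.

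The same age contrast in intact cortex gave 88 calls (0.603% of genes tested), 51 higher (0.349%) and 37 lower (0.253%). Of these, 41 were higher and 18 lower in MCAO cortex too, and none was called in the opposite direction. The test of whether the age difference itself differed between MCAO and intact cortex called 12 genes (0.0822%), of which 9 were also called after MCAO. The number of calls in this test ranged from 3 to 68 when 1 MCAO library was left out: it was 3 without library E of the 18-month group and 68 without library F of the 3-month group.

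Larger age differences after MCAO than in intact cortex were called for Rsad2 (difference of log2 fold changes 2.55 ± 0.41, adjusted p = 0.0112), Isg15 (3.30 ± 0.57, adjusted p = 0.0272), Ifi44 (3.01 ± 0.60, adjusted p = 0.0453) and Helz2, an interferon-induced helicase (2.44 ± 0.49, adjusted p = 0.0469). In intact cortex Isg15 had 2.71, 6.54 and 11.9 CPM at 18 months, against 6.01, 7.62 and 10.02 CPM at 3 months, and the control groups overlapped. Podxl, a sialomucin of endothelium (1.00 ± 0.19, adjusted p = 0.0384), and the pseudogene Gm8292 (1.20 ± 0.23, adjusted p = 0.0383) were the other positive genes.

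In the other direction, Gfap had 35.5, 43.2 and 73.3 CPM in intact cortex at 18 months, against 10.4, 11.1 and 12.01 CPM at 3 months, a log2 fold change of 2.08 ± 0.15, beside 0.19 ± 0.13 after MCAO (difference -1.89 ± 0.20, adjusted p = 1.04e-05). Ccl3, a chemokine of microglia, was near 0 in young intact cortex: it had 0.370, 0.927 and 1.58 CPM at 18 months, against 0, 0 and 0.184 CPM at 3 months, and after MCAO 5.73, 6.76 and 8.599 CPM at 18 months, against 4.13, 4.900 and 7.904 CPM at 3 months (difference -3.89 ± 0.69, adjusted p = 0.0272). With so few reads in young intact cortex this fitted difference depends on the prior count. Kcnc1 (-0.82 ± 0.16), Klhl40 (-1.42 ± 0.29) and the unclassified transcript Gm43398 (-1.47 ± 0.30) also had negative differences (adjusted p = 0.0362, 0.0469 and 0.0453). Gfap and Rsad2 kept this call in every alternative in which it was computed, while that of Ccl3 was lost with scaling to spiked-in RNA (adjusted p = 0.0671). No intact library was left out in any alternative, although the tested choroid plexus markers reached 782 CPM in intact cortex at 3 months. The other 8 genes named here lost the call when at least 1 single library was left out: 7 of them without library C of the 3-month group, 7 without library E of that group, 6 without library C, 4 without library D and 8 without library E of the 18-month group, and Klhl40 also without library D of the 3-month or A of the 18-month group, with the highest adjusted p at 0.0935.

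**Figure D5:**
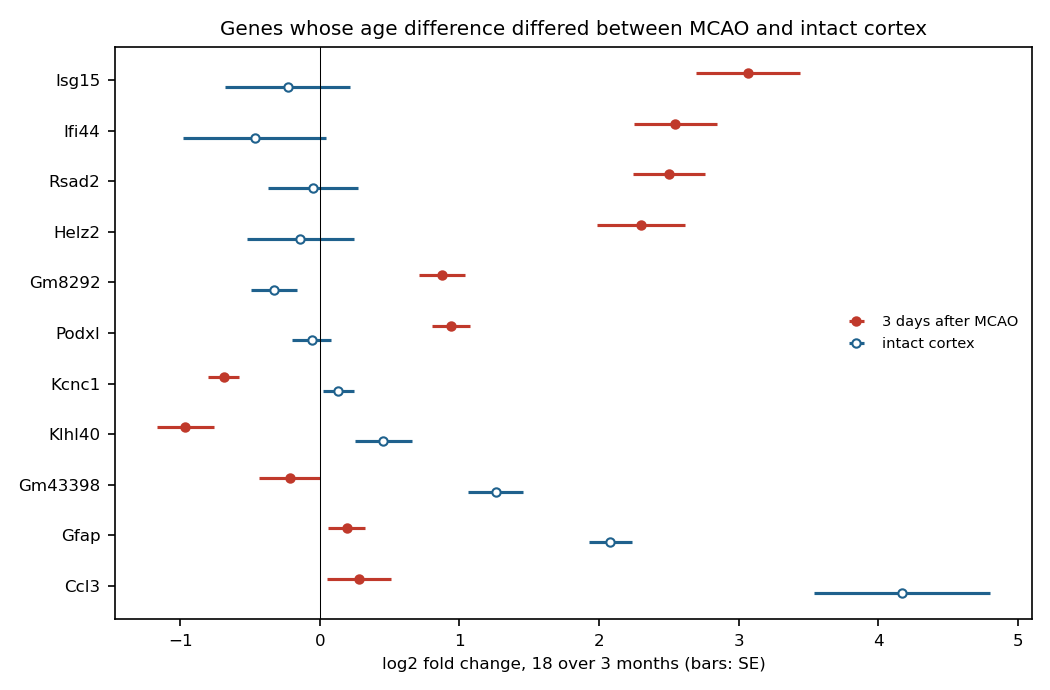
Filled red points give the log2 fold change of 18 over 3 months after MCAO and open blue points the same in intact cortex, with standard errors, for 11 of the 12 genes whose age difference differed between the conditions. Isg15, Ifi44, Rsad2 and Helz2 lie above 2 after MCAO and near 0 in intact cortex, while Gfap and Ccl3 lie near 0 after MCAO and above 2 in intact cortex.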

How the data were processed

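Total RNA from 24 cortices was made into 3′-end libraries (QuantSeq FWD). The authors deposited raw read counts per gene, a count table for each library; per the submitters' processing notes Trimmomatic, HTSeq and DESeq2 were used with build GRCm38. The aligner, the annotation and the strand setting of the counting are each not given in the sources used. Reads that fit several places in the genome were listed apart by the authors and not counted for genes, so near-identical genes may be undercounted, and genes that overlap on opposite strands cannot be told apart.

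From these counts, ERCC rows and the 5 summary lines of HTSeq were left out. Reads assigned to no gene were 25.7 to 34.5% per library, taken over reads in genes, in ERCC, in no gene or ambiguous between genes. Reads that fit several places are not in that share. Their summary line held 2665289 to 10180255 per library. All 24 libraries (4 groups of 6 animals) entered 1 fit: TMM scaling, edgeR's filterByExpr with a minimum count of 10, and the quasi-likelihood test (edgeR 4.0.16, limma 3.58.1, R 4.3.3), with Benjamini-Hochberg adjustment over 14599 genes at 0.05. p-values measure the spread between animals. Standard errors were derived from the fold change and the test. DESeq2 1.42.0, limma voom, other scalings and filters, a replicate block, and leaving out libraries were alternatives. Genes named in the text were chosen by rule. Among called genes whose mean reached 5 CPM in either MCAO group, with no overlap of the 6 against 6 animals, the 10 with the largest change and the 10 with the smallest p in each direction were taken, without predicted genes and pseudogenes. To these came the first 3 members and the 3 members with the smallest p of each list, at most 10 genes in each direction of the test of the difference between conditions, and, for promoters, named interferon genes that hold the letters searched. From these a selection is described, and some genes are not reported here. The members and lists were chosen with earlier results of these data known. Jchain, Ighm, Igkc, Cxcl13, Tap2 and Erap1 were picked after their values were seen. Of 93 listed interferon genes 80 were tested. Promoters are RefSeq's (GRCm38.p6), 1 per gene (the first listed). The tests were also run on simulated counts with known changes in 50 genes of each size. Of changes of 1.5-fold 36% were called, of 2-fold 74%, of 4-fold 100% and of 8-fold 98%, with 7 unchanged genes called. A gene that was not called may therefore still differ by a small amount.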

Additional observations from a re-analysis of the deposited data

Results flagged for a closer look

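In 33 of 262 combinations of a described gene and an MCAO group (12.6%), 1 library lay far from the other 5. The limit used flags about 1 in 20 for independent values with a normal spread. Here the values were CPM without a log, and many flags came from the same library. The share of 12.6% is therefore not measured against chance. Library A of the 18-month MCAO group stood apart for Cx3cr1 at 557 CPM. Library B of the 18-month MCAO group stood apart for Nefm at 182 CPM and Atp1b1 at 1223 CPM. Library C of the 18-month MCAO group stood apart for Irgm2 at 48.5 CPM, Psmb8 at 80.9 CPM, Psmb9 at 67.7 CPM, Osm at 6.41 CPM, Trem2 at 77.4 CPM, Plac8 at 61.6 CPM, Jchain at 56.8 CPM, Ighm at 339 CPM, Cdh5 at 99.6 CPM, Ccna2 at 25.2 CPM and Shroom2 low at 18.9 CPM. Library D of the 18-month MCAO group stood apart for Ifi211 at 13.6 CPM and Ttr at 42.2 CPM. Library F of the 18-month MCAO group stood apart for Hbb-bs at 704 CPM and Hba-a1 at 137 CPM. Library A of the 3-month MCAO group stood apart for Zbp1 at 2.03 CPM, Ifit3 at 23.6 CPM, Oasl2 at 9.16 CPM, Rsad2 at 21.1 CPM and Ifi44 at 6.97 CPM. Library C of the 3-month MCAO group stood apart for Ube2l6 at 4.01 CPM and Ttr at 1320.3 CPM. Library D of the 3-month MCAO group stood apart for Ccna2 at 13.2 CPM. Library E of the 3-month MCAO group stood apart for Trim30d at 3.70 CPM and Trim34a at 2.82 CPM. Library F of the 3-month MCAO group stood apart for Ccl7 at 7.29 CPM, Ccr2 at 45.5 CPM, Plac8 at 14.2 CPM, S100a9 at 20.5 CPM and Cdh5 at 43.6 CPM. Every one of these values was the highest of its group except that of Shroom2.

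The age difference itself differed between MCAO and intact cortex (edgeR quasi-likelihood test of the interaction, adjusted over all genes) for 12 genes. Among these the difference of log2 fold changes was 3.30 for Isg15, 2.55 for Rsad2, 3.01 for Ifi44, -3.89 for Ccl3, -1.89 for Gfap, -0.82 for Kcnc1, 2.44 for Helz2, 1.00 for Podxl, 1.20 for Gm8292, -1.47 for Gm43398 and -1.42 for Klhl40.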

How the results depend on the processing

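Of 105 called genes described, 68 kept their call in all 24 alternatives, 37 lost it in at least 1, and none changed sign. Scaling to spiked-in RNA gave 25 genes called lower, 16 lower without overlap, 3 in the test of the difference between conditions, and 39 in intact cortex. DESeq2 gave 118 in that test and 174 in intact cortex, and limma voom gave 1439 higher, 218 and 426. With the 12 MCAO libraries alone 382 genes were higher and 225 lower. Without libraries A and C of the 3-month MCAO group, 887 and 428 genes were higher and lower without overlap, 135 were called for the difference and 185 in intact cortex, and mean depth was 1.25 M counts higher at 18 months. Without libraries C and F of the 18-month MCAO group 439 were higher and 239 lower. Without all 4, an alternative chosen after seeing the data, 1079 and 584 did not overlap, 330 were lower, 23 differed between conditions and 208 in intact cortex, and the depth difference was 1.15 M. Fewer animals make non-overlap easier by construction; the other causes were not tested.

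Leaving out 1 MCAO library gave 577 to 1111 genes higher, 374 to 748 lower, 388 to 518 higher and 192 to 283 lower without overlap. It gave 3 to 68 for the difference and 79 to 137 in intact cortex, of which no library was left out. Differences of 18 minus 3 months ranged from -0.694 to 1.37 M counts, -1.32 to -0.588 percentage points of ERCC, -1.99 to -0.226 of unassigned reads and -0.507 to -0.241 of the top 10 genes. The same letters followed by CT were held by 0.270% of all promoters and 21.3% of interferon genes. Signs turned for genes that were not called: Snap25 (0.0392), Syt1 (0.11), Gm43398 (0.0207) and Mki67 (0.00117) with spiked-in scaling; Mki67 (0.0115) and Cx3cr1 (0.0838) with voom; Mki67 (0.16), Cx3cr1 (0.19) and Ttr (0.51) without libraries A and C of the 3-month group; and Mki67 (0.23), Cx3cr1 (0.23) and Ttr (0.85) without all 4. Leaving out 1 library gave -0.0186 to 0.13 for Ifnar1, -0.0907 to 1.78 for Ighm, -4.79 to 0.32 for Ttr, -0.26 to 0.0312 for Snap25 and -0.19 to 0.0362 for Syt1.

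The labels do not say that a replicate letter marks a pair, so the letters were not taken as pairs. Same-letter deviations correlated at 0.0244 to 0.307, not over 0.1 for 2 of 6 letters. Over all combinations of letters the range was -0.188 to 0.307, and 3 of 6 letters correlated best with their own. In each of the 4 groups, letters A to C had a lower share of reads assigned to no gene than letters D to F. These shares were 25.7 to 28.3% against 29.5 to 34.5% in 18-month MCAO and 28.5 to 29.1% against 31.8 to 33.7% in 3-month MCAO libraries. They were 27.7 to 30.0% against 31.5 to 33.1% in intact cortex at 18 months, and 29.4 to 30.4% against 30.9 to 32.5% at 3 months. The cause of this split was not tested, and the main fit holds no term for it. With a replicate block 1026 genes were higher and 717 lower. At 4170241 counts, the lowest depth of an MCAO library, genes of a few CPM rest on few reads.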

Other observations

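Immunoglobulin RNA was concentrated in 1 animal. Igkc, a light chain, had 1991 reads in 18-month and 17 in 3-month MCAO libraries, of which 1932 lay in library C of the 18-month group. The same library had 339 CPM of Ighm, a heavy chain, and 56.8 CPM of Jchain, which joins secreted antibodies. Cxcl13, a chemokine for B cells, had 423 reads in 18-month and 7 in 3-month MCAO libraries, and 285 of them were in that library. Jchain was called over all libraries but had an adjusted p of 0.774 without that library. Its call was also lost without any of libraries A, C, D, E or F of the 3-month MCAO group, at adjusted p from 0.0567 to 0.0751, and in 14 of 24 alternatives in all.

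Several interferon genes had too few reads to be tested. Of these, Oas1a had 90 reads in 18-month and 13 in 3-month MCAO libraries, Oas3 had 95 and 9, Ifi209 had 172 and 18, and Ifi206 had 105 and 4. Tgtp1 had 1 and 1, and Tgtp2 had 2 and 2. No test was made of these.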
